A study of Homo sapiens with 2 samples.

Results

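Polyamine genes were followed in C4-2B, a human prostate cancer cell line that descends from LNCaP and grows under castrate levels of androgen. The 10 genes were taken by symbol for their place in polyamine synthesis (ODC1, AMD1, SRM, SMS), in the control of the ODC1 protein (OAZ1, OAZ2, AZIN1) or in polyamine breakdown (SAT1, PAOX, SMOX), and all 10 were found among the 25343 rows of the deposited table. C4-2B Con cells, sensitive to the androgen receptor antagonist enzalutamide, were kept in DMSO. C4-2B ENZR cells, the resistant line, were kept in 20 µM enzalutamide, in the same serum-containing medium and in parallel. Both titles also carry the tag shC, which the labels do not explain. The drug was present in the resistant culture only, so the resistant state and the presence of the drug cannot be told apart. Each line gave 1 RNA-seq library, so no difference below has a replicate check and no p-value is given. Levels are TMM-normalized CPM: a gene's reads per 1000000 of the library, with library totals adjusted by the TMM method.

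Polyamines are small positively charged molecules that bind nucleic acids and are needed for growth. ODC1, ornithine decarboxylase, makes putrescine from ornithine. SRM and SMS, spermidine synthase and spermine synthase, then add aminopropyl groups that come from S-adenosylmethionine after AMD1, adenosylmethionine decarboxylase, has acted on it. Antizymes, encoded by OAZ1 and OAZ2, bind ODC1 protein and send it to the proteasome. AZIN1, a relative of ODC1 without its catalytic activity, binds antizyme and frees ODC1. SAT1 acetylates spermidine and spermine, PAOX oxidizes the acetylated forms, and SMOX oxidizes spermine directly. The prostate is known for its very high polyamine output, and ODC1 is a classical androgen-induced gene there.

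Full-length antizyme is made only when ribosomes shift reading frame at a stop codon, and rising polyamines favour the shift. The sequence around that stop is shown here because it is the feature that OAZ1 and OAZ2 share and by which polyamines act on them. Capitals mark the TCC codon and the TGA stop, and the sequences come from GENCODE 29 transcripts on GRCh38. The OAZ1 window lies in exon 2 of OAZ1 transcript 204 at chr19:2271413-2271472 on the plus strand, and the OAZ2 window in exon 3 of OAZ2 transcript 208, annotated as a processed transcript, at chr15:64691486-64691545 on the minus strand.
OAZ1: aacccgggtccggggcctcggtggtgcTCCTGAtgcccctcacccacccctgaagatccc
OAZ2: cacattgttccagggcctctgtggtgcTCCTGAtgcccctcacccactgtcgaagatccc
The windows were identical at 49 of 60 bases, and at 29 of the 33 bases from the capitals onward. The RNA counts below do not measure frameshifting, the ODC1 protein or polyamines.

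No polyamine gene differed 2-fold between the lines. The log2 ratio of ENZR to Con, with 1 CPM added to each level, was used to compare genes, and the 10 ranged from -0.65 for OAZ1 to 0.61 for PAOX. Of the 13803 genes that averaged at least 1 CPM over the libraries, 11.3% were past 2-fold in either direction, against 0 of the 10. At 1.5-fold, 26.5% of all genes and 2 of the 10 passed, OAZ1 as lower and PAOX as higher, beside 12.9% of all genes on the lower side and 13.6% on the higher. Within that range 6 of the 10 were lower in ENZR and 4 higher, beside 50.5% of all genes being lower. The median log2 ratio was -0.13 for the 10 genes and -0.01 for all genes measured, and both quartiles of all genes, -0.33 and 0.31, lay within the range of the 10.

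For 8 of the 10 the difference was larger than counting error. The other 2 were OAZ2, with a ratio of 0.985 on 1910 and 2279 reads, and SMOX, with only 46 and 69 reads. The 95% counting interval of a ratio, an exact binomial interval from the reads recovered in both libraries, excluded 1 on the lower side for 5 genes and on the higher side for 3. Of all genes, 36.6% did so on the lower side, 34.6% on the higher and 71.2% in either direction, so the polyamine genes were close to the background here. Counting intervals leave out the variation between cultures, which is unknown here.

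**Figure D1:**
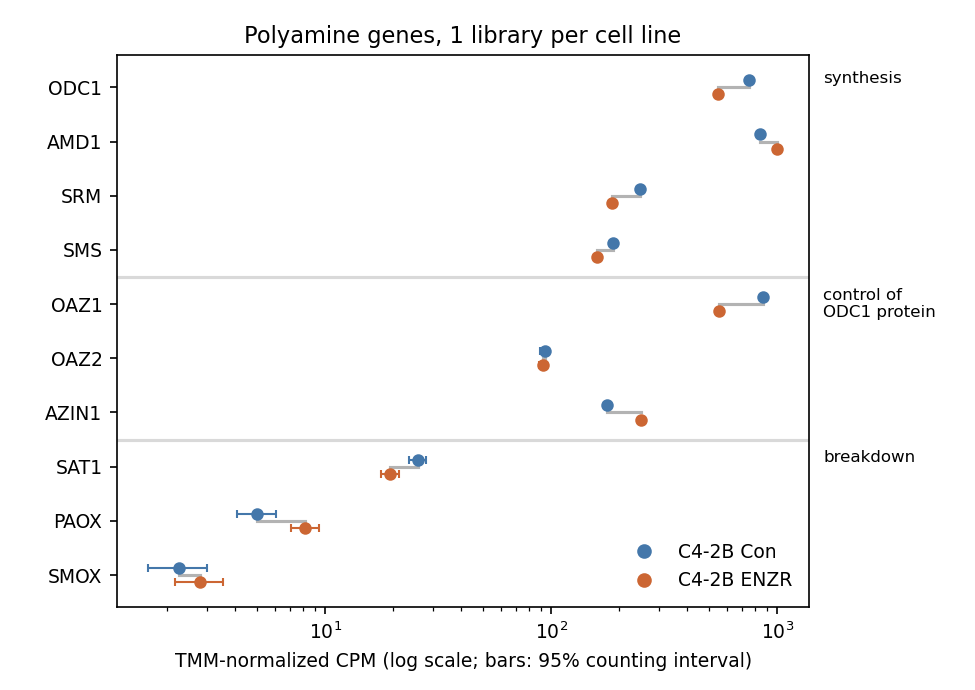
Level of each polyamine gene in TMM-normalized CPM on a log axis, in Con (blue) and ENZR (orange), with 95% counting intervals as bars and a grey line joining the libraries. ODC1, AMD1 and OAZ1 are the 3 most abundant in both lines and PAOX and SMOX below 10 CPM, while the points of a gene stay close together beside the spread between genes.

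Among the synthesis genes, AMD1 went against the other 3. ODC1 stood at 751 CPM in Con (15334 reads) against 548 CPM in ENZR (13557 reads). The resistant line thus had 0.730 times the ODC1 level of the sensitive line, with a counting interval from 0.713 to 0.747. AMD1 stood at 840 CPM in Con against 993 CPM in ENZR, a ratio of 1.18 (1.16 to 1.21). The library with less ODC1 RNA was therefore the one with more AMD1 RNA.

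The aminopropyl transferases were both lower in ENZR. SRM stood at 247 CPM in Con against 186 CPM in ENZR, a ratio of 0.755 (0.725 to 0.785). SMS stood at 188 CPM and 159 CPM, a ratio of 0.847 (0.810 to 0.886). SRM and ODC1 were lower to nearly the same degree: SRM reads per ODC1 read were 0.329 in Con and 0.340 in ENZR, a change of 1.03 with an interval from 0.987 to 1.08. AMD1 reads per ODC1 read were 1.12 in Con and 1.81 in ENZR, a 1.62-fold change (1.57 to 1.67). Such a ratio within a library does not depend on how the libraries were scaled. The summed level of the 4 synthesis genes was 2026 CPM in Con and 1887 CPM in ENZR, with AMD1 offsetting part of the difference in the other 3.

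The genes that act on the ODC1 protein differed in both directions. OAZ1 stood at 866 CPM in Con (17676 reads) against 551 CPM in ENZR (13614 reads), a ratio of 0.636 (0.622 to 0.650), the lowest of the 10. AZIN1, which antagonizes antizyme, stood at 176 CPM in Con against 250.4 CPM in ENZR, a ratio of 1.42 (1.36 to 1.48). The ratio of OAZ1 to AZIN1 reads was 4.91 in Con and 2.20 in ENZR, 2.23-fold lower in the resistant line. ODC1 reads per AZIN1 read likewise went from 4.26 to 2.19, whereas ODC1 reads per OAZ1 read were 0.868 and 0.996, a change of 1.15 (1.11 to 1.19). AZIN1 RNA was thus higher relative to both OAZ1 and ODC1, and OAZ1 was lower than ODC1 in proportion.

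OAZ2, the second antizyme, did not follow OAZ1. It stood at 93.6 CPM in Con against 92.2 CPM in ENZR, a ratio of 0.985 with an interval from 0.926 to 1.05 that includes 1. OAZ1 reads per OAZ2 read were 9.25 in Con and 5.97 in ENZR. The sign of the OAZ2 difference depended on the scaling: its log2 ratio was -0.02 with the deposited values and 0.09 with the authors' TMM scaling undone. For the other 9 genes the direction was the same under all 5 scalings tried, with 5 lower and 4 higher. Undoing the scaling moved the median of all genes by 0.11, so the lower genes were closer to Con and the higher genes farther from it in that setting. SMS then came closest to no difference among the lower genes, at -0.12.

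**Figure D2:**
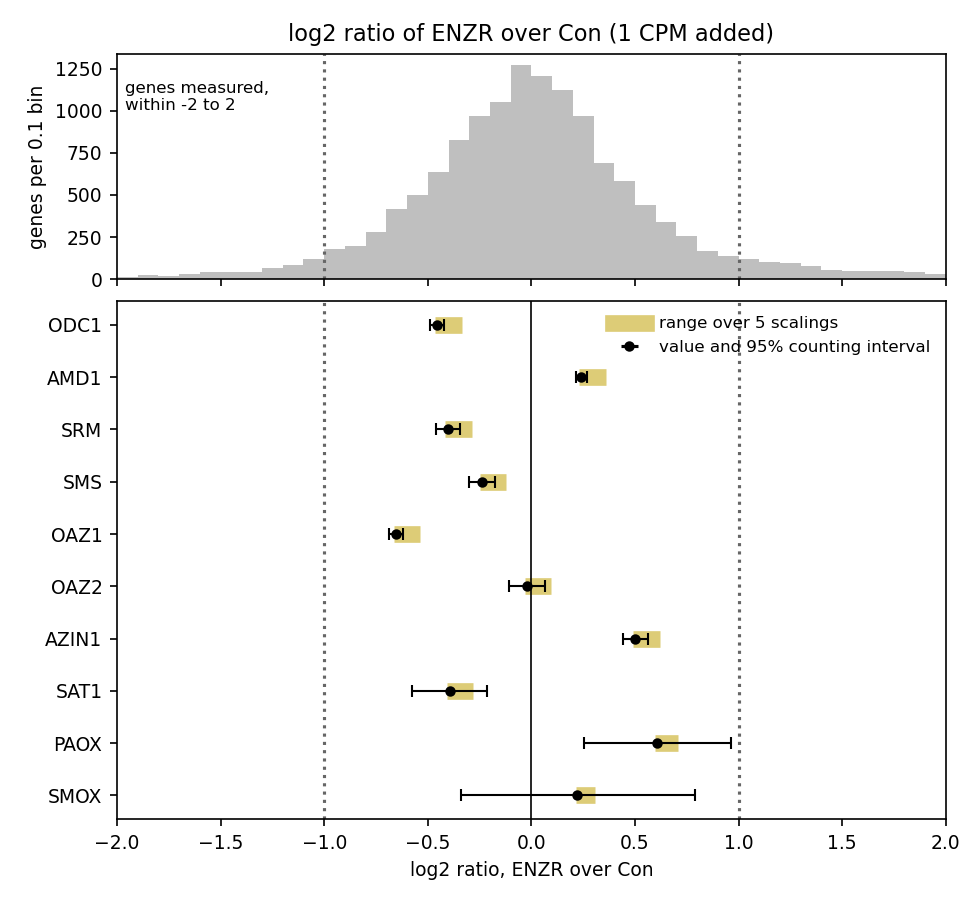
Upper panel: number of measured genes per 0.1 of log2 ratio, ENZR over Con, between -2 and 2. Lower panel: the 10 polyamine genes on the same axis, with the 95% counting interval (black bar), the range over 5 scalings (yellow band) and 2-fold marked by dotted lines. All 10 lie inside 2-fold, from OAZ1 at -0.65 to PAOX at 0.61, and the band of OAZ2 crosses 0.

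The breakdown genes were expressed far below the synthesis genes, with a sum of 32.9 CPM in Con and 30.2 CPM in ENZR. SAT1, the acetyltransferase that starts breakdown, stood at 25.7 CPM in Con (524 reads) against 19.3 CPM in ENZR (477 reads), a ratio of 0.751 (0.662 to 0.852). PAOX, which acts on what SAT1 has acetylated, stood at 5.00 CPM in Con (102 reads) against 8.13 CPM in ENZR (201 reads), a ratio of 1.63 (1.28 to 2.09). SAT1 reads per PAOX read were 5.14 in Con and 2.37 in ENZR, a change of 0.462 (0.349 to 0.609). The acetylating and the oxidizing gene of this route therefore differed in opposite directions.

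SMOX was the least abundant of the 10. It stood at 2.25 CPM in Con (46 reads) against 2.79 CPM in ENZR (69 reads), and its ratio of 1.24 had an interval from 0.840 to 1.84. At this depth, a difference in SMOX within that interval could not be told from no difference.

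Divided by exon length, the order of the genes was the same in both lines apart from 2 exchanges. Levels per kilobase of exon (union of the GENCODE 29 basic transcripts) were highest for OAZ1, at 754 CPM per kilobase in Con and 480 in ENZR. ODC1 came second in Con at 254, followed by AMD1 at 241, and in ENZR AMD1 at 285 passed ODC1 at 185. SRM (195 in Con, 147 in ENZR) and SMS (102 and 86.8) followed. OAZ2 and AZIN1 also changed places, with 48.4 and 36.2 in Con against 47.7 and 51.4 in ENZR. The intervals of ODC1 and AMD1 in Con (250 to 258 and 237 to 245) and those of OAZ2 and AZIN1 in ENZR (45.7 to 49.6 and 50.2 to 52.7) lay close together without overlapping, and gene length adds an error that they leave out. SAT1 (15.3 and 11.5), PAOX (2.69 and 4.37) and SMOX (0.895 and 1.11) closed the order in both lines. Taking the longest coding transcript as the length left the order of the 10 as it was in each line.

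**Figure D3:**
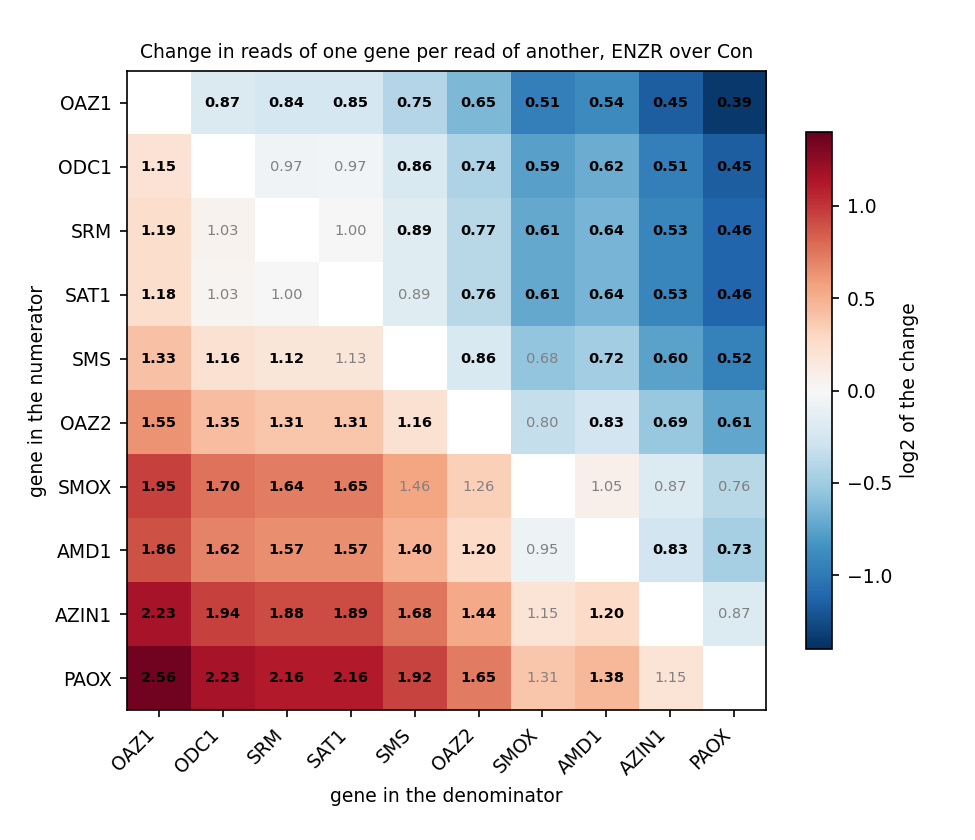
Change between the libraries, ENZR over Con, in the reads of a row gene per read of a column gene, with genes ordered by their log2 ratio and colour giving the log2 of the change. Bold values have a 95% counting interval that excludes 1; the block of ODC1, SRM and SAT1 is pale, with changes from 0.97 to 1.03, and the dark corners are PAOX and AZIN1 against OAZ1 (2.56 and 2.23).

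The pairwise ratios sorted the genes by shared size of difference. Of the 45 pairs, 35 had an interval that excluded 1, 20 changed 1.5-fold or more and 5 changed 2-fold or more. Those 5 were PAOX against OAZ1 (2.56-fold, 2.00 to 3.28), ODC1 (2.23-fold, 1.75 to 2.86), SAT1 (2.16-fold, 1.64 to 2.86) and SRM (2.16-fold, 1.68 to 2.77), and AZIN1 against OAZ1. ODC1, SRM and SAT1 differed least from each other, with SAT1 reads per SRM read at 0.104 in both lines. A pair chosen from 45 for its size is a description of these libraries only. Pairs among all measured genes were not counted, so no background stands beside the 35, 20 and 5. Of all single genes, 71.2% had an interval that excluded 1, 26.5% were past 1.5-fold and 11.3% past 2-fold.

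ODC1 and SRM share a promoter motif, whose part in their lower values was not tested. The hexamer CACGTG, the palindromic E-box that MYC and its partner MAX bind, was searched in RefSeq windows on GRCh38.p14 that run from 250 bases before to 50 bases after a gene's start. Windows of 7 of the 10 genes were searched. Those of AZIN1, PAOX and SMOX were not used, so nothing is said here on the motif in these genes. Of the 7, 2 held the motif, ODC1 and SRM, as did 7.26% of all 35116 windows and 8.77% of the 27305 genes with a window. OAZ1, SMS and SAT1, which were lower in ENZR as well, held none, nor did OAZ2 and AMD1. Since the motif is a palindrome, a match counts on both strands. The stretches that hold it are shown with the motif in capitals. The ODC1 stretch, chr2:10447993-10448082 on the minus strand, belongs to the second of 2 annotated starts and lies in the first intron of the ODC1 transcript that starts farthest upstream in GENCODE 29. The SRM stretch, chr1:11060189-11060248 on the minus strand, lies upstream of the gene.
ODC1: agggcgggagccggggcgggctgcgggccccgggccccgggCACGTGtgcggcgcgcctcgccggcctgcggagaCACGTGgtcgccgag
SRM: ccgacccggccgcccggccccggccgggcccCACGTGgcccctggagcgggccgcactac
The first ODC1 motif begins 29 bases before that start and the SRM motif 199 bases before its start. MYC RNA itself stood at 248 CPM in both lines (ratio 1.00, 0.965 to 1.04), and MAX at 62.2 CPM and 59.4 CPM (0.955, 0.885 to 1.03). Whether either factor binds these sequences in C4-2B cells is not measured in the table.

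OAZ1 differed together with its chromosomal neighbours. The 10 nearest measured genes on each side of OAZ1 on chromosome 19, by RefSeq order, were all lower in ENZR (20 of 20), with a median log2 ratio of -0.64 beside -0.65 for OAZ1 itself. Over the 50 genes nearest to it, 46 were lower and the median was -0.61, and over the nearest 100, 90 were lower and the median was -0.58. A median over 20 neighbours as low as this was found around 0.977% of the 12486 genes placed in order (122 genes). OAZ1 is among them, and the windows of adjacent genes overlap, so they are not separate regions. The whole of chromosome 19 had a median of -0.22. Relative to its neighbours, OAZ1 was thus at -0.01, and the part of this shared position in its lower value was not tested.

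No such pattern was found around ODC1 or SRM. The 20 genes around ODC1 had a median of 0.10, with 2 of them lower than ODC1, and those around SRM had a median of 0.12, again with 2 lower than SRM. Relative to these medians, ODC1 was at -0.56 and SRM at -0.52, slightly farther from 0 than before. AZIN1 (neighbours 0.02) and PAOX (14 neighbours, -0.09) stayed higher by 0.48 and 0.70. AMD1 and SMOX (neighbours 0.08 for each) stayed higher by 0.16 and 0.14. OAZ2 (neighbours 0.19) went from -0.02 to -0.21. Relative to neighbours, OAZ2 was thus lower than OAZ1 (-0.01), the reverse of their order without neighbours subtracted. SMS and SAT1, both on the X chromosome, had neighbours at -0.14 and -0.18, which left them at -0.10 and -0.21.

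**Figure D4:**
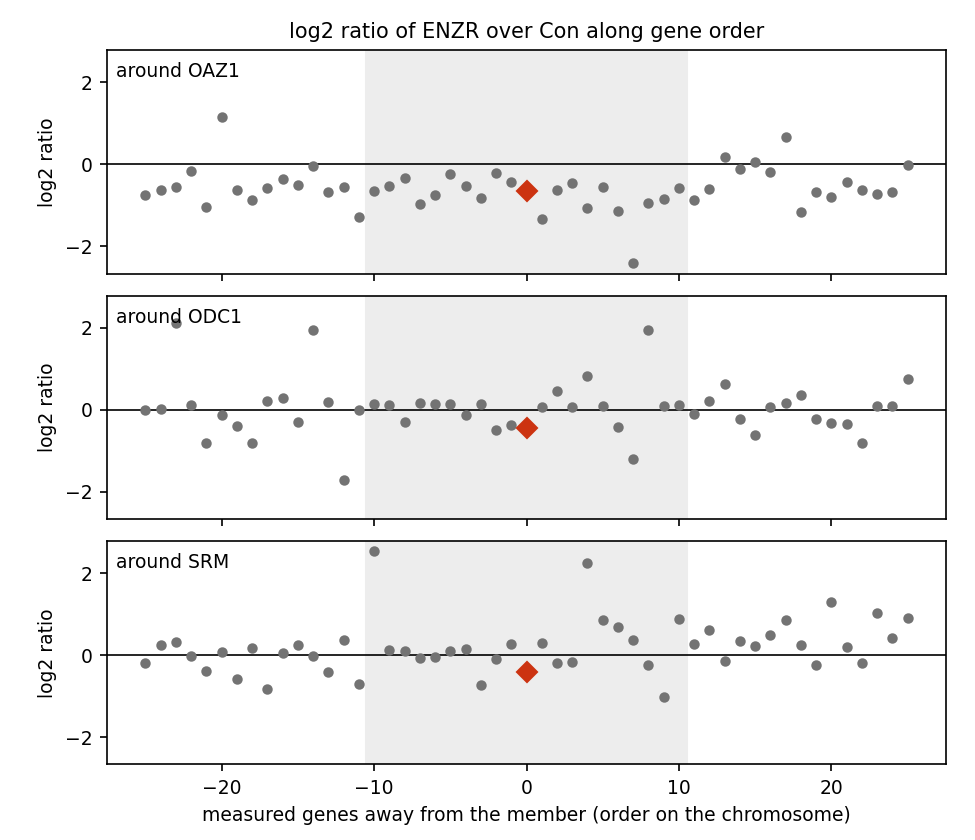
The log2 ratio of ENZR over Con for the member (red diamond) and up to 25 measured genes on each side in chromosome order (grey points), with the nearest 10 on each side shaded. All 20 shaded points around OAZ1 lie below 0, while those around ODC1 and SRM lie on both sides of it.

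The GC content of the transcripts was set beside the log2 ratios, and its part in them was not tested. OAZ1 (54.0% GC) and OAZ2 (52.8%) fell in the same of 10 equal classes of genes by GC, whose median log2 ratio was 0.01. SRM (63.7%) and PAOX (63.3%) fell in the highest class, whose median was -0.13, and differed in opposite directions. With the median of its class subtracted, SRM was at -0.28, from -0.40 before, and PAOX at 0.73, from 0.61.

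Several of the 10 carry an uncertainty of read assignment. GENCODE 29 names 4 processed pseudogenes of AMD1 and 2 of SRM, and 0 of these have a row of their own in the table, so reads from or shared with such copies may be counted with the parent gene. AZIN1, OAZ1 and OAZ2 overlap genes on the opposite strand, and strand use is not stated in the sources at hand. On the same strand, GENCODE 29 names a protein-coding gene without a row in the table that overlaps OAZ1 and another that overlaps PAOX, the genes with the lowest and the highest ratio, and reads of such overlaps may be counted with either gene. JSRP1, the protein-coding gene on the strand opposite to OAZ1, had 0.0490 CPM in Con and 0.0809 CPM in ENZR.

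Genes around the pathway, its homologs and transcription factors included, mostly differed by less than 2-fold. Of 45 genes in 6 lists, 36 reached a mean of 1 CPM, of which 23 were lower and 13 higher, 3 lower by 2-fold or more and 0 higher by 2-fold. Among all genes, 50.5% were lower at any size, 4.64% were 2-fold lower and 6.69% 2-fold higher. The 3 were 2 transporters of the ornithine and arginine supply and 1 enzyme of the methionine cycle. SLC7A1, a cationic amino acid transporter, stood at 641 CPM in Con against 266 CPM in ENZR, a ratio of 0.414 (0.402 to 0.427). SLC7A2, its relative, stood at 87.2 CPM and 31.1 CPM, a ratio of 0.357 (0.328 to 0.389). GNMT, which consumes S-adenosylmethionine in methylating glycine, stood at 13.5 CPM in Con on 275 reads and had 52 reads in ENZR, a ratio of 0.156 (0.114 to 0.211). MAT1A, a low gene of the same list with 31 reads in Con and 13 in ENZR, had a plain ratio of 0.346 (0.166 to 0.681) and missed 2-fold on the log2 scale with 1 CPM added.

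Ornithine metabolism itself differed in both directions. Of 7 measured genes of ornithine and arginine supply, 5 were lower and 2 higher, beside 50.5% of all genes being lower, and the median log2 ratio was -0.32. The counting interval excluded 1 for 3 of the 5 lower genes and for both higher ones, and included it for ASL and AGMAT. Among all genes it excluded 1 for 36.6% on the lower side, 34.6% on the higher and 71.2% in either direction. ARG2, the mitochondrial arginase that makes ornithine, stood at 41.4 CPM in Con against 76.1 CPM in ENZR, a ratio of 1.84 (1.69 to 1.99). OAT, ornithine aminotransferase, which draws on the same ornithine, stood at 51.3 CPM and 28.3 CPM, a ratio of 0.551. These 2 genes are named for their values, since neither passed 2-fold. ARG2, for an enzyme that makes ornithine, was thus higher in ENZR and OAT lower. ODC1, which also draws on ornithine, was lower as well, as were the transporters SLC7A1 and SLC7A2 of the same supply list.

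In the methionine cycle and the salvage of methylthioadenosine, the by-product of SRM and SMS, 9 of 11 genes were lower and 2 higher, with a median of -0.30, beside 50.5% lower among all genes. The interval excluded 1 for 8 of the lower and 1 of the higher. Among all genes it did so for 36.6% on the lower side, 34.6% on the higher and 71.2% in either direction. AHCY, which clears S-adenosylhomocysteine and was the most abundant of them, stood at 457 CPM and 312 CPM, a ratio of 0.683 (0.663 to 0.704). MAT2A, which makes S-adenosylmethionine, had a ratio of 0.855 (0.828 to 0.884). MTAP, the first salvage enzyme, had a ratio of 0.985 (0.917 to 1.06), whereas ADI1, which acts late in salvage, had a ratio of 0.570 (0.541 to 0.602).

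**Figure D5:**
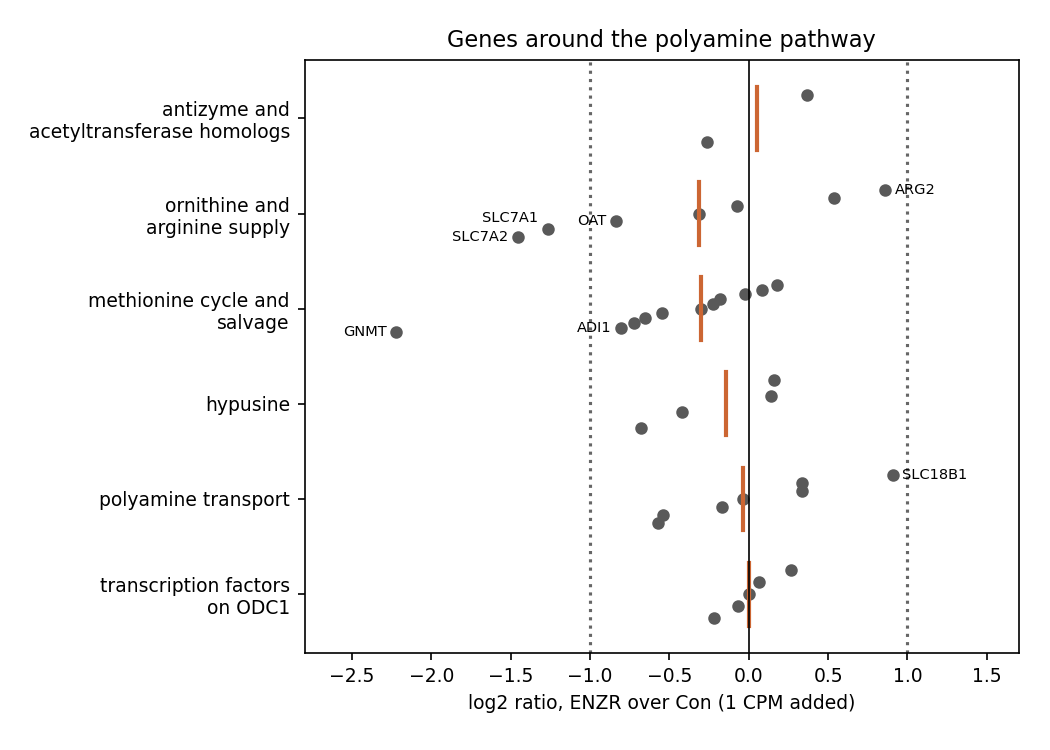
The log2 ratio of ENZR over Con for each measured gene of 6 lists around the pathway (points), with the list median in orange, 2-fold as dotted lines and genes beyond 0.8 in either direction named. GNMT, SLC7A2 and SLC7A1 are the genes past 2-fold on this scale, all lower, and ARG2 and SLC18B1 lie farthest to the higher side.

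Spermidine is also the donor for hypusine, a modified lysine found in the translation factor eIF5A. EIF5A stood at 669 CPM in Con against 737 CPM in ENZR, a ratio of 1.10 (1.08 to 1.13). The modifying enzymes were lower: DHPS, deoxyhypusine synthase, had a ratio of 0.620 (0.571 to 0.672) and DOHH, the hydroxylase, 0.739 (0.660 to 0.828). DOHH is the 21st measured gene from OAZ1 on chromosome 19. It is among the 50 genes nearest to OAZ1, of which 46 were lower. The stretch between them was not lower throughout: ZNF555, ZNF77 and TLE2 had log2 ratios of 0.19, 0.05 and 0.66.

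Of 7 measured genes of polyamine transport, 4 were lower and 3 higher, with a median of -0.04, beside 50.5% of all genes being lower. SLC3A2, with the highest mean CPM of the list, stood at 199 CPM and 136 CPM, a ratio of 0.684 (0.654 to 0.717). ATP13A3 and ATP13A2, P-type ATPases that carry polyamines, had ratios of 0.889 (0.849 to 0.931) and 0.975 (0.903 to 1.05), and ATP13A3, at 152 CPM, lay above SLC3A2 in ENZR. SLC18B1, a vesicular polyamine transporter, had the highest ratio of the list, 1.93 (1.69 to 2.20), at 16.2 CPM and 31.3 CPM. SLC22A3, at 163 CPM and 110 CPM, had the lowest, 0.671 (0.638 to 0.707). Among the homologs, SAT2 stood at 22.4 CPM and 29.2 CPM, a ratio of 1.30 (1.16 to 1.47), opposite in direction to SAT1, and the antizyme OAZ3 had a ratio of 0.816 (0.661 to 1.01). AZIN2 was not matched to a row. Of the 5 measured transcription factors that act on ODC1, the interval included 1 for 4, MYC among them, and lay above 1 for MXI1 (1.21, 1.11 to 1.31). Among all genes, 71.2% had an interval that excluded 1.

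The libraries held 21024484 reads in genes for Con and 23479051 for ENZR, so that 1 read was worth 0.0490 CPM and 0.0404 CPM. All 9 markers of prostate luminal cells were measured, with a sum of 4056 CPM in Con and 2521 CPM in ENZR. KLK3, which encodes prostate-specific antigen, was at 1428 CPM and 3.72 CPM, and the other 8 summed to 2627 CPM and 2518 CPM, with 5 lower in ENZR and 3 higher (FOLH1 at 712 CPM and 994 CPM, KRT8 at a ratio of 1.27 and EPCAM at 1.04). The basal markers KRT5 and TP63, the leukocyte marker CD3E, the fibroblast marker COL1A2 and the endothelial marker CDH5 had 0 reads in both libraries. Other markers of these lists were low without being absent. PECAM1 (endothelial) stood at 1.57 CPM in Con against 1.66 CPM in ENZR, and KRT14 (basal) at 0.392 CPM against 0.0404 CPM. The fibroblast markers LUM and DCN were seen in ENZR only, on 32 reads and 2 reads. The 4 fibroblast markers summed to 18.1 CPM in Con and 45.8 CPM in ENZR, nearly all of it COL1A1, and the 3 leukocyte markers PTPRC, CD68 and CD3E to 16.0 CPM and 10.1 CPM, mostly CD68. HBA1, an alpha-globin gene of red blood cells that was placed on the leukocyte list, had 43 reads in Con and 6 in ENZR. The part of these markers in the polyamine values was not tested.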

How the data were processed

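RNA-seq of 1 C4-2B Con and 1 C4-2B ENZR library was read as single 50-base reads, per the labels' protocols. The deposited table gives 1 signal value per gene and library, named TMM-normalized CPM by the authors. The tools edgeR, RSEM 1.2.15 and Bowtie2 2.1.0 and the build hg19 are listed, with no roles, in the submitters' processing notes; annotation and strand: not given in the sources used here. Every value was a whole multiple of 1 step (100% within 0.01 reads), so whole reads were recovered; they may be rounded RSEM estimates. The table held 0 further sample columns.

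Measured genes had a mean of 1 CPM or more. The main value was the log2 ratio with a pseudocount of 1 CPM, which understates the difference of low genes; ratios in the text are of plain CPM. With 1 library per group, a count test would have 0 residual degrees of freedom and was not run. Intervals are exact 95% intervals (Clopper-Pearson for ratios and conditional for pairs of genes, SciPy 1.17.1; Poisson for levels) and cover counting error only. Coordinates are printed only for sequences, on the build of the reference and not on hg19.

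The calculation was tested on simulated reads for 13803 genes of this comparison. The simulated reads varied by counting error only, so they check the arithmetic and say nothing on the variation between cultures. Of 50 genes made 3-fold higher and 50 made 3-fold lower, 92% and 90% passed 2-fold, and of 50 made 1.5-fold higher 0% did. The interval held the true ratio for 95.6% of 13603 unchanged genes. It did so for 98% of the genes made 3-fold higher and 92% of those made 3-fold lower. The 10 members, the 6 lists and the marker lists were chosen with earlier results of these data known. Named genes were all members, each listed gene past 2-fold and the one with the highest mean CPM in each list; others named, such as ARG2, OAT, MAT1A, ADI1, DHPS and SLC18B1, were chosen after their values were seen. Other pseudocounts, filters and scalings (one with TMM factors from edgeR 4.0.16) were tried, and neighbour order, GC content and transcript length were added after seeing the data.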

Additional observations from a re-analysis of the deposited data

How the results depend on the processing

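No polyamine gene passed 2-fold under any of the 9 other settings of pseudocount, filter or scaling. With a threshold of 1.5-fold, 2 of the 10 and 3658 of all genes passed. Over all genes, 1564 of 13803 passed 2-fold with the main setting. With a minimum mean of 5 CPM, which leaves fewer genes, 1033 of 11243 did, and with a pseudocount of 5 CPM 818 of 13803. The median of the 10 genes stayed below 0 in each setting, from -0.01 with the TMM scaling undone to -0.24 with that minimum, which leaves out SMOX. The number of lower genes among the 10 was 6, or 5 where OAZ2 crossed 0: its log2 ratio was 0.095 with the TMM scaling undone, 0.092 with the 10 most abundant genes left out and 0.032 with upper quartile scaling. MYC, at 0.0032 in the main setting, was at -0.0075 with TMM recomputed on these libraries. With neighbours subtracted, OAZ1 went from -0.65 to -0.01 and OAZ2 from -0.02 to -0.21. The part of position was not tested. No paired analysis was possible because each line has 1 library and the comparison comes from no test. SMOX, with 46 and 69 reads, is the gene whose precision depth limits most.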
